A study of Mus musculus with 91 samples.

Results

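The genes described here carry out cholesterol and fatty acid metabolism: 41 were chosen by name, in the roles of sterol synthesis enzymes (11 genes), sterol control (5), fatty acid synthesis and activation (10), storage, release and uptake of lipid (12) and sterol efflux (3). Of these, 40 are among the 16580 genes of the table, and Cd36 was not analysed here. They were followed in 91 single cells of C57BL/6 mouse bone marrow, each sorted by flow cytometry into its own well with its antibody signals recorded and sequenced as full-length cDNA (Smart-seq2). All cells had been freed from crushed bones, were positive for Vibrant Dye, used to exclude debris, lacked CD45, Ter119, CD41 and CD71, which mark blood cells, and had been gated on VCAM1, an adhesion molecule of stromal cells. The gate was VCAM1+CD61+ for 39 cells (plates of 17 and 22), VCAM1+CD61- for 40 cells (plates of 24 and 16) and VCAM1+ with no split on CD61, the integrin beta 3 chain, for 9 cells. Age, sex and number of animals are not given in the sources used here, and 3 further cells carry a title and a gate label that disagree, so they entered no comparison of gates.

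Cells make cholesterol from acetyl-CoA by way of mevalonate, isoprenoid units, squalene and lanosterol. When sterol in the endoplasmic reticulum is low, SCAP carries the SREBP proteins to the Golgi, where they are cut and released to switch on the enzymes, while INSIG1 holds the complex back when sterol is plentiful. Fatty acids are built from the same precursor, joined to glycerol and stored in droplets coated by perilipins, which are abundant in marrow adipocytes. CAR cells, the CXCL12-abundant reticular cells of marrow, make adiponectin (Adipoq) and can give rise to such adipocytes, whereas osteolineage cells make osteopontin (Spp1).

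Because the labels name no animal, a gate counts as 1 sample: no test was run, and the values describe these cells. Depth ranged over the cells from 507713 to 6702475 counts, the median being 1887600 for CD61+, 2368300 for CD61- and 4004900 for VCAM1+. Effects of the plate and of the gate cannot be told apart, since no plate held both CD61 gates. Levels are counts per 1000000 (CPM) of the counts summed over the cells of a plate or gate. A gene is said to separate the plates where both CD61+ plates lie above, or both lie below, both CD61- plates. Parentheses after a ratio hold its exact 95% interval, which covers counting error alone, since reads of these libraries are not independent molecules. The CD61+ cells also had more genes with a count, at a median of 5501 against 4641 after every cell was thinned to 900000 counts, and the part of this difference in the results was not tested. Cell types differed between the gates as well. The summed level of 18 osteolineage markers was 84028 CPM in CD61+ and 20614 CPM in CD61- cells, and that of 15 CAR markers was 17191 and 40749 CPM.

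The start regions of the sterol enzymes are shown because these genes are classical shared targets of the SREBP proteins, which bind the sterol regulatory element beside a CCAAT box. RefSeq start sites on GRCm38.p6 gave a 250-base window for 31 of the 41 members, and for 8 of the 11 sterol enzymes. The windows of Hmgcs1 (chr13:119690101-119690350, plus strand), Mvk (chr5:114444019-114444268, plus strand), Mvd (chr8:122443423-122443672, minus strand) and Sc5d (chr9:42264301-42264550, minus strand) are the 4 that lie wholly before the annotated gene. They are printed 5' to 3' on the gene's strand, with capitals for CCAAT on either strand (ATTGG on the printed strand) and for TCACNCCAC.
Hmgcs1: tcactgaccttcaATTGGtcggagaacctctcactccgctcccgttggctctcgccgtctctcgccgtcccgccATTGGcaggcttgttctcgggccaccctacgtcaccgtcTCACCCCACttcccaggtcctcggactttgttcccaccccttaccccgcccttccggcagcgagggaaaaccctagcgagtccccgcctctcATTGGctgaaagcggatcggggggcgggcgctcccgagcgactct
Mvk: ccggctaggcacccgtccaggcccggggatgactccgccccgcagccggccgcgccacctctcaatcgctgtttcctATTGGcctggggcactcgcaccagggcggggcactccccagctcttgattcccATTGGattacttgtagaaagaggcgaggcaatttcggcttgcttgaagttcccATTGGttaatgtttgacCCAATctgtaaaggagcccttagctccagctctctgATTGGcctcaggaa
Mvd: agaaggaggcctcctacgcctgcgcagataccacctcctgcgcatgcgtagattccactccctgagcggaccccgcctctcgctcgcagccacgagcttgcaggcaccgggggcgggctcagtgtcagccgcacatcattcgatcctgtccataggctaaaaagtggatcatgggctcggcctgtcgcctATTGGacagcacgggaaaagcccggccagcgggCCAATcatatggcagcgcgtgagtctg
Sc5d: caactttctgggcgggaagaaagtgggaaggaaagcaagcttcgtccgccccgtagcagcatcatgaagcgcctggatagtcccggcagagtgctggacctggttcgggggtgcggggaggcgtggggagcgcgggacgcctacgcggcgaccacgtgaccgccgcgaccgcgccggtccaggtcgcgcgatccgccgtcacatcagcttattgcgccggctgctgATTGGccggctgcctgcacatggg

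CCAAT, searched on both strands, was found in the windows of 8 of 8 sterol enzymes with an entry, which are Hmgcs1, Mvk, Mvd, Idi1, Lss, Cyp51, Sc5d and Dhcr7. It was found for 21 of 31 members in all (67.7%) and for 37.5% of the 27025 genes with a window. For Dhcr7 the CCAAT matches lie only in a window wholly inside the annotated gene, and its other windows had 0. TCACNCCAC, also searched on both strands and not overlapping a CCAAT in these windows, was found for Hmgcs1, where it lies 137 to 129 bases before the start, and for Acsl1, against 1.22% of all genes. The Acsl1 match also lies in a window wholly inside the annotated gene. These matches describe letters only and are not evidence of binding.

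Sterol synthesis enzymes were higher in CD61+ cells. Of the 10 that passed a filter on low counts (10 counts and 5 cells over the 4 plates), 6 separated the plates upward: Hmgcs1, Idi1, Fdps, Fdft1, Cyp51 and Dhcr7. Sc5d separated them downward. With the mean CPM over cells Fdps, Dhcr7 and Sc5d no longer separated the plates, and after thinning Fdps and Sc5d did not. With the mean CPM, and again after thinning, 1 other sterol enzyme separated them downward. Over all 14063 genes past the filter, 20.0% separated the plates upward and 17.8% downward, and over the 37 members past it 11 did so upward and 5 downward. The median log2 ratio of CD61+ over CD61- was 1.08 for the sterol enzymes, 0.37 for the 37 members and 0.0084 for all genes. Summed over the 11 enzymes the level was 252 and 181 CPM in CD61+ plates 1 and 2, and 176 and 91.2 CPM in CD61- plates 1 and 2. The plates of the gates do not overlap in this sum, although CD61+ plate 2 and CD61- plate 1 lie close together. Single cells on CD61+ plate 2 reached 558 CPM, and whether the plates stay apart without single cells was not tested. The ratio of the gates was 1.55 (1.51 to 1.59), and it stayed between 1.41 and 1.70 when any single cell was left out.

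Fdft1, squalene synthase, which commits isoprenoids to sterols, had 9.40 and 13.5 CPM in the CD61+ plates against 2.64 and 0.460 CPM in the CD61- plates. It had a count in 17 of 39 CD61+ and 4 of 40 CD61- cells, and its ratio was 6.68 (5.63 to 7.97), or 5.30 to 22.7 without any single cell. Its exons overlap those of Ctsb on the opposite strand, and because the counting is not known to use strand, reads of the pair cannot be told apart. Idi1, which interconverts the 5-carbon isoprenoid units, was at 3.59 and 2.44 CPM in the CD61+ and at 0.0190 and 0.256 CPM in the CD61- plates.

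Fdps, which builds farnesyl diphosphate, had 35.6 and 30.6 CPM in the CD61+ plates, 26.5 CPM in CD61- plate 1 and no count in CD61- plate 2. Cyp51, lanosterol demethylase, stood at 57.8 and 31.2 against 27.8 and 10.7 CPM, and Dhcr7, which catalyses the last step to cholesterol, at 27.03 and 40.8 against 17.8 and 14.7 CPM. Fdps shares exon sequence on its own strand with Gm43738, and Cyp51 overlaps Akap9 on the opposite strand, so both are uncertain. Over the 91 cells Idi1 and Cyp51 were each counted in 14 cells, Fdps in 18 and Dhcr7 in 38. Hmgcs1, the cytosolic HMG-CoA synthase at the head of the pathway, had 17.5 and 17.0 against 9.75 and 7.72 CPM. It was counted in 64.1% of CD61+ and 65% of CD61- cells, so its higher sum came with no higher share of cells with a count. Exons of Hmgcs1 overlap Gm48342 on the opposite strand, and those of Idi1 overlap Gm48574, so the same limit holds for both.

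Sc5d, a desaturase of the late pathway, went the other way, with 31.8 and 23.5 CPM in the CD61+ and 55.3 and 45.0 CPM in the CD61- plates. Mvk, mevalonate kinase, did not separate the plates: it had 43.0 and 11.2 against 17.5 and 0.0256 CPM. The 3 remaining enzymes did not separate them either. Sqle, the squalene epoxidase, totalled 5.93 CPM in CD61+ and 2.94 CPM in CD61- cells, Lss, lanosterol synthase, 6.85 and 8.64 CPM, and Mvd, which was counted in 5 of 91 cells and did not pass the filter, 5.63 and 4.43 CPM.

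The plot of member levels by plate shows this pattern enzyme by enzyme.

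**Figure D1:**
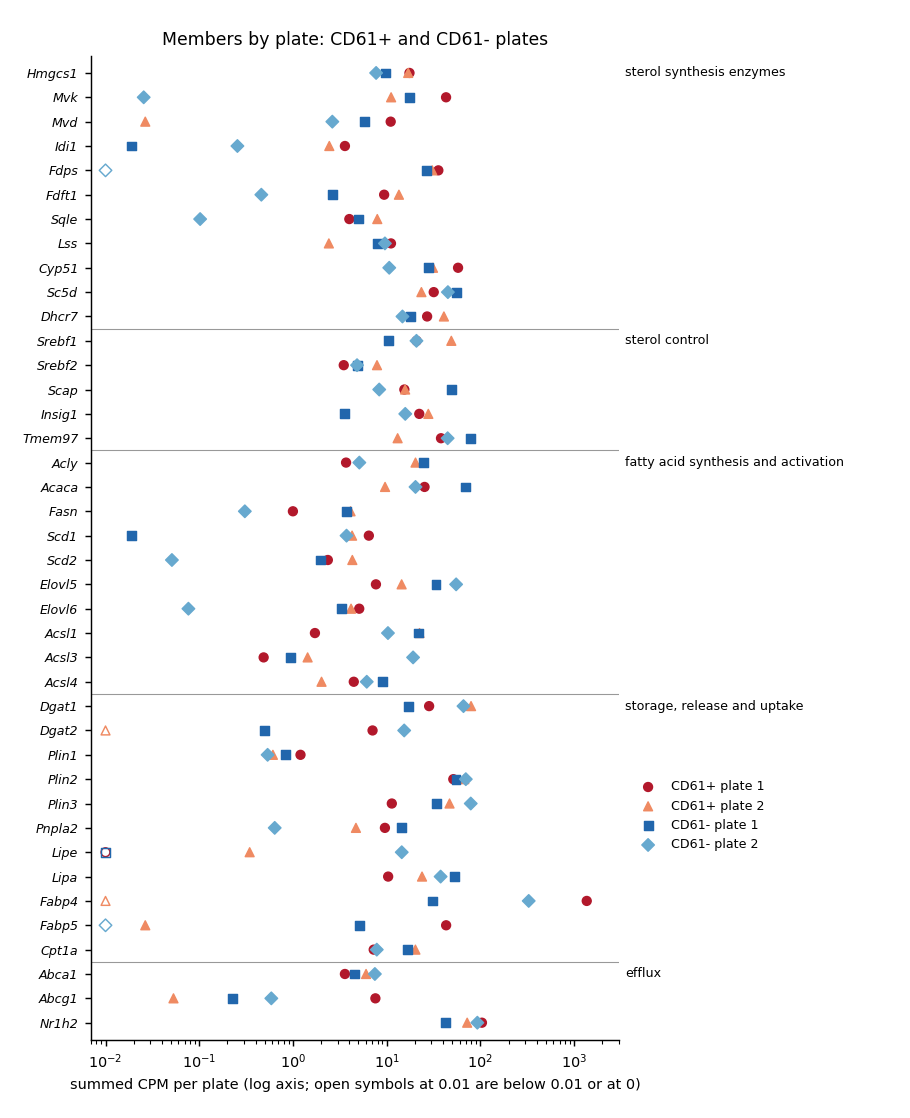
Summed CPM of the 40 members (rows, by role) in the 4 plates (symbols) on a log axis, with values under 0.01 CPM drawn open at 0.01. Red symbols lie right of both blue ones for 6 sterol enzymes, and Fabp4 spans from no count in CD61+ plate 2 to 1365 CPM in CD61+ plate 1.

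Within each of the 2 main cell types the summed sterol enzymes were again higher in the CD61+ plates. The 88 cells with a gate were clustered without the members, and 54 cells in 4 clusters were called CAR-like and 25 cells in 2 clusters osteolineage-like by their markers. Cluster 7, which gives 8 of the osteolineage-like cells and 2 of the 4 from the CD61- gate, is mixed: 13 osteolineage and 10 CAR markers passed in it, it had 16145 CPM of Cxcl12, and at a clustering resolution of 0.5 a cluster of 11 cells in which 11 CAR and 12 osteolineage markers passed stayed unnamed. In CAR-like cells the summed enzymes had 224 and 252 CPM in the CD61+ plates (8 and 8 cells) against 170 and 84.5 CPM in the CD61- plates (21 and 13 cells). Of 10 enzymes tested there, 6 separated the plates upward and 0 downward (Hmgcs1, Mvk, Idi1, Fdps, Fdft1 and Dhcr7), where 19.3% of genes did so upward and 15.8% downward. Clusters 1, 3, 4 and 5 held 5, 5, 1 and 5 of the CD61+ and 16, 5, 8 and 5 of the CD61- CAR-like cells. In osteolineage-like cells the sum was 246 and 158 CPM against 134 and 73.0 CPM, but each CD61- plate held 2 such cells, and 36.2% of all genes separated the plates upward and 8.97% downward. Of 7 enzymes tested in these cells Hmgcs1 and Dhcr7 separated them upward and 0 downward. By type alone the sum was 156 CPM in CAR-like and 170 CPM in osteolineage-like cells. Within plates the log2 ratio of CAR-like over osteolineage-like cells was -0.14 and 0.68 on CD61+ plates 1 and 2. On CD61- plates 1 and 2 it was 0.34 and 0.21, so the pooled order held on CD61+ plate 1 alone.

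Among the controllers of sterol synthesis the members did not move as one. Insig1, which retains the SREBP complex, and Srebf1, which encodes SREBP-1, were higher in both CD61+ plates, and Tmem97, a sterol-responsive membrane protein, was lower. Srebf2, which encodes SREBP-2, and Scap did not separate the plates. The summed level was 107 CPM in CD61+ and 124 CPM in CD61- cells, with the plates at 100 and 114 against 146 and 94.5 CPM, so the gates overlap.

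Insig1 had 22.3 and 27.8 CPM in the CD61+ plates against 3.55 and 15.8 CPM in the CD61- plates, a ratio of 2.85 (2.63 to 3.10) that ran from 2.26 to 8.51 without any single cell. Srebf1 had 20.9 and 49.0 against 10.5 and 20.8 CPM, which is a bare separation that TMM and DESeq2 scaling both ended. Its exons overlap Rai1 on the opposite strand. Tmem97 had 38.02 and 13.1 against 78.4 and 44.7 CPM, a ratio of 0.403 (0.382 to 0.424) that ran from 0.157 to 0.560 without any single cell. One cell held 63.6% of its CD61+ counts. Srebf2 totalled 5.65 CPM in CD61+ and 4.87 CPM in CD61- cells, and Scap, at 15.4 and 15.8 against 49.1 and 8.33 CPM, lay on both sides of the CD61+ plates.

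Fatty acid synthesis and activation was lower in CD61+ cells when its 10 genes were summed, yet single genes went both ways. The sum was 58.3 and 87.1 CPM in the CD61+ plates and 168 and 120 CPM in the CD61- plates, so the plate sums do not overlap. The medians over cells were close, at 34.3 CPM in CD61+ and 38.5 CPM in CD61- cells. An endothelial-like cell on CD61- plate 2 had 1771 CPM. CAR-like cells on CD61- plates 1 and 2 reached 1047.5 and 1026.8 CPM. Whether the plate sums stay apart without single cells was not tested. The ratio of the gates was 0.490 (0.475 to 0.506), with 0.452 to 0.630 without any single cell. Scd1, Scd2 and Elovl6 separated the plates upward and Elovl5 and Acsl4 downward. These were 3 and 2 of 10 genes, beside 20.0% and 17.8% of all genes. The median log2 ratio over the 10 was -0.49. Each of these 5 calls ended under some alternative: Scd2, Elovl6 and Acsl4 with the mean CPM over cells and with thinning, and Scd1 and Elovl5 without the cells of the endothelial-like cluster. In CAR-like cells alone the sums overlapped, at 63.7 and 138 against 170 and 60.1 CPM. There 0 of 10 genes separated the plates, beside 19.3% of all genes upward and 15.8% downward. In osteolineage-like cells the sums were 57.0 and 45.3 against 82.9 and 61.3 CPM. Acaca, Scd2 and Elovl5 separated the plates upward in these cells among 7 genes tested, beside 36.2% of all genes.

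Elovl5, which elongates polyunsaturated fatty acids, had 7.69 and 14.4 CPM in the CD61+ and 33.6 and 55.1 CPM in the CD61- plates. A single endothelial-like CD61- cell had 1510.5 CPM, and without the 4 cells that had a count of Cdh5, the endothelial cadherin, Elovl5 stood at 10.6 CPM in CD61+ and 20.5 CPM in CD61- cells, and the group at 74.1 and 123 CPM. Acaca, the carboxylase that makes malonyl-CoA, totalled 17.6 and 48.2 CPM, but 58.3% of its counts came from 1 CAR-like CD61- cell at 1048 CPM. Acaca was counted in 69.2% of CD61+ and 60% of CD61- cells. Without the cell that mattered most, its ratio of 0.366 became 1.495.

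Acsl4, an acyl-CoA synthetase that prefers arachidonate, had 4.46 and 2.02 against 9.07 and 6.13 CPM. Scd2, a stearoyl-CoA desaturase, had 2.36 and 4.30 against 1.95 and 0.0511 CPM and was counted in 33.3% and 17.5% of cells. Scd1, its relative, and Elovl6, an elongase of saturated chains, were counted in 10 and 17 of 91 cells. They totalled 5.39 and 4.64 CPM in CD61+ against 1.60 and 1.93 CPM in CD61- cells, and 54.3% of the Scd1 counts were in a single VCAM1+ cell. Scd1 and Scd2 are close relatives whose reads the counting could divide unevenly.

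Acly, which makes cytosolic acetyl-CoA, did not separate the plates, with 3.69 and 20.3 against 24.9 and 5.11 CPM. Fasn, the fatty acid synthase, was sparse, at 2.53 CPM in CD61+ and 2.25 CPM in CD61- cells and a count in 11 of 91 cells. The synthetases Acsl1 and Acsl3 totalled 11.9 and 0.952 CPM in CD61+ against 16.9 and 8.70 CPM in CD61- cells, and neither separated the plates.

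Lipid storage was dominated by Fabp4, a fatty acid carrier of adipocytes and of endothelium, which was the most abundant member per length at 372 CPM per kb of transcript over the 91 cells. Nr1h2 followed at 38.4 and Plin2 at 36.0 CPM per kb. Fabp4 was nonetheless carried by few cells: 11 of 91 had a count and 9 had at least 1 CPM. Its plates were at 1365 and 0 CPM for CD61+ and at 31.01 and 328 CPM for CD61-, so the gates overlap. The gate ratio of 4.41 (4.33 to 4.49) became 0.683 without 1 cell.

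The cells with Fabp4 were of 2 kinds. Of the 9 cells at 1 CPM or more, 4 had a count of Cdh5 and belonged to the endothelial-like cluster: they held 89.7% of all Fabp4 counts, at 13165, 8091, 3334 and 494 CPM, and had 10 to 12 of 12 endothelial markers and no Adipoq. The other 5 were CAR-like and had no Cdh5, with 3231, 642, 470, 433 and 166 CPM of Fabp4 and between 1040 and 5812 CPM of Adipoq. The highest of these 5, on CD61+ plate 1, also had 5 endothelial markers at 949 CPM in all, and the remaining 4 had at most 1 such marker, at under 1 CPM. Whether that cell is a doublet was not tested. Without the cells with a Cdh5 count, Fabp4 stood at 49.0 CPM in CD61+ (1 cell) and 37.1 CPM in CD61- cells (5 cells), and the whole storage group, 901 against 395 CPM, came to 251 against 275 CPM.

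**Figure D2:**
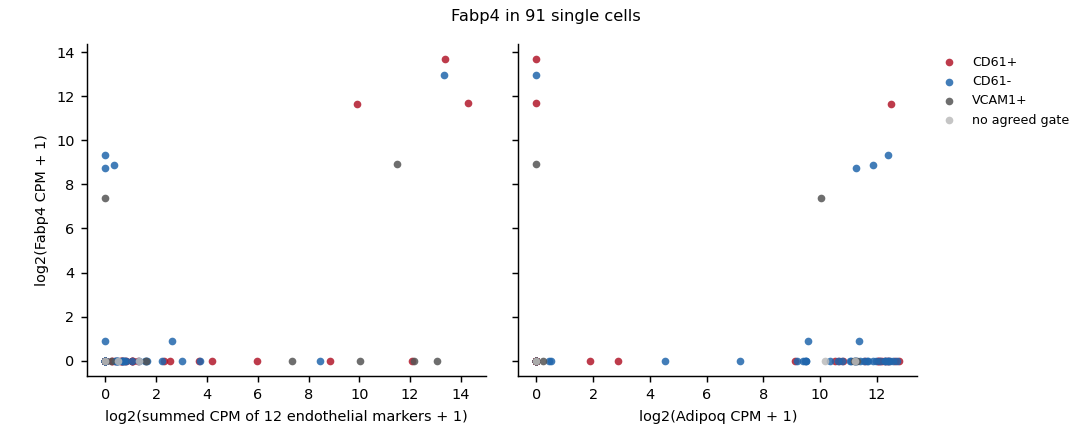
Fabp4 in each of the 91 cells against the summed level of 12 endothelial markers (left) and against Adipoq (right), all as log2(CPM + 1) and coloured by gate. Of the 5 cells at the upper right of the left panel 4 have no Adipoq, and 5 cells with Fabp4 lie at high Adipoq in the right panel.

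Plin2, the perilipin of droplets outside fat cells, had 51.4 and 67.3 against 55.0 and 69.9 CPM, and its ratio was 0.966 (0.929 to 1.00). Per length it was above Plin3 over the 91 cells, at 36.0 against 13.3 CPM per kb. Plin1, the perilipin of fat cells, was counted in 39 of 91 cells but reached only 0.913 CPM in CD61+ and 0.708 CPM in CD61- cells, with no cell above 8.24 CPM. Plin3, a coat found in most cells, totalled 28.8 and 53.2 CPM and did not separate the plates. Lipa, the lysosomal acid lipase, was the single storage gene that did, with 10.4 and 23.9 against 53.5 and 37.6 CPM, or a ratio of 0.364 (0.341 to 0.387).

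The enzymes of triglyceride synthesis and breakdown did not separate the plates. Dgat1, which makes triglyceride, totalled 53.5 CPM in CD61+ and 37.9 CPM in CD61- cells and was counted in 53.8% and 27.5% of cells. Pnpla2, the first triglyceride lipase, totalled 7.18 and 8.55 CPM and had 86.8 CPM in VCAM1+ cells, which was 11.8 CPM without the 4 of these 9 cells that fell in the endothelial-like cluster. Dgat2 and Lipe, the hormone-sensitive lipase, had a count in 4 cells each and did not pass the filter, at 3.60 and 0.170 CPM in CD61+ against 6.84 and 6.17 CPM in CD61- cells. Fabp5, a relative of Fabp4, was counted in 8 cells, at 43.1 and 0.0266 against 5.12 and 0 CPM in the plates, with 76.9% of its CD61+ counts in 1 cell, and Cpt1a, which admits fatty acids to mitochondria, totalled 13.7 and 12.9 CPM.

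Of 9 markers of mature fat cells on the list, 4 were analysed here, and each of these had a count in both gates, with a summed level of 356 CPM in CD61+ and 44.7 CPM in CD61- cells and a median over cells of 2.79 and 0 CPM.

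Sterol efflux genes did not separate the plates in any case. Nr1h2, which encodes the oxysterol receptor LXR beta, had 104 and 72.3 against 42.3 and 92.8 CPM, and was counted in 59.0% of CD61+ and 37.5% of CD61- cells. Abcg1, an exporter of sterol, had 7.58 and 0.0531 against 0.228 and 0.588 CPM: without the cells with a Cdh5 count it was at 0.0417 CPM in CD61+ and 0.177 CPM in CD61- cells. Abca1, the exporter that loads apolipoprotein A-I, totalled 4.79 and 5.79 CPM. The group summed to 115 and 78.4 against 47.1 and 101 CPM.

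Most members were sparse, and depth limits what can be read from single genes. The median member had a count in 25.5 of 91 cells, and 5 were counted in more than 50% of them: Hmgcs1, Acaca, Plin3, Abca1 and Nr1h2. Thinning to 900000 counts left 35 CD61+ and 39 CD61- cells. Over all 40 members, 30.2% of member and cell pairs then had a count in CD61+ and 23.1% in CD61- cells. Over the 14063 genes past the filter, which 37 of the members passed, the shares were 38.2% and 32.3%, so the 2 sets are not quite alike. By that measure 6 of 37 members had a share at least 20 points higher in CD61+ cells, beside 11.3% of genes, and 0 had one at least 20 points lower, beside 1.81%. The 6 were Fdps, Fdft1, Insig1, Scd2, Dgat1 and Nr1h2. Fdft1 had a count in 40% of thinned CD61+ and 10.3% of thinned CD61- cells, against 43.6% and 10% before thinning.

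**Figure D3:**
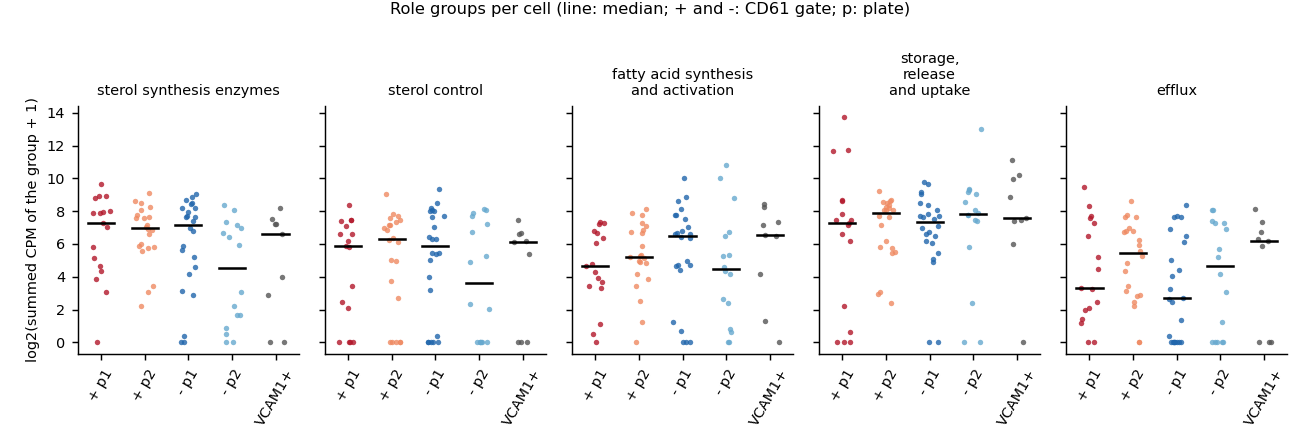
Each point is 1 cell and shows the summed CPM of a role group as log2(CPM + 1), by CD61 gate and plate (+ p1 is CD61+ plate 1) and for the VCAM1+ gate, with lines at the medians. The groups overlap widely cell by cell, and the storage group has a few cells far above the rest.

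Enzymes of the sterol pathway were weakly related from cell to cell. A cell had a count for a median of 3 and at most 7 of the 11 enzymes, and 7 cells had none. Over the 55 pairs of enzymes the median Spearman rho across the 91 cells was 0.035, from -0.15 for Mvd and Lss to 0.30 for Fdps and Sqle. The summed enzymes and the summed control genes had rho 0.33 and Pearson r 0.37 across the 91 cells, and rho between 0.16 and 0.62 in the 4 plates. The number of genes with a count had rho 0.36 with the summed enzymes (0.19 to 0.56 within plates), and its part in the relation was not tested.

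The role groups had little relation to the levels of Adipoq, Cxcl12 and Spp1. Across 91 cells that share plates and differ in depth and type, the sterol enzymes had rho -0.041 with Adipoq, 0.097 with Cxcl12 and 0.15 with Spp1. Within plates the value with Adipoq ran from -0.44 to 0.13. Within the 54 CAR-like cells alone rho was 0.14 with Adipoq and 0.38 with Cxcl12, and in these cells the number of genes with a count had rho 0.50 with the enzymes. The lowest value of any group was efflux with Adipoq, at -0.27, and it was 0.23 on CD61- plate 1 and between -0.42 and -0.22 on the other plates.

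Among single members Fdft1 had rho -0.39 with Adipoq (-0.54 to -0.12 in the 4 plates), Sc5d had 0.36 with Cxcl12 (0.17 to 0.64) and Fabp5, counted in 8 cells, had -0.34 with Cxcl12 (-0.59 to -0.26 in the 3 plates where it had a count). Of all 120 member and gene pairs, these 3 exceeded 0.3 in size. CD200, an antibody signal recorded at the sort, had rho 0.36 with the summed sterol enzymes over all cells, and 0.51, 0.020, 0.49 and 0.50 on CD61+ plates 1 and 2 and CD61- plates 1 and 2.

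**Figure D4:**
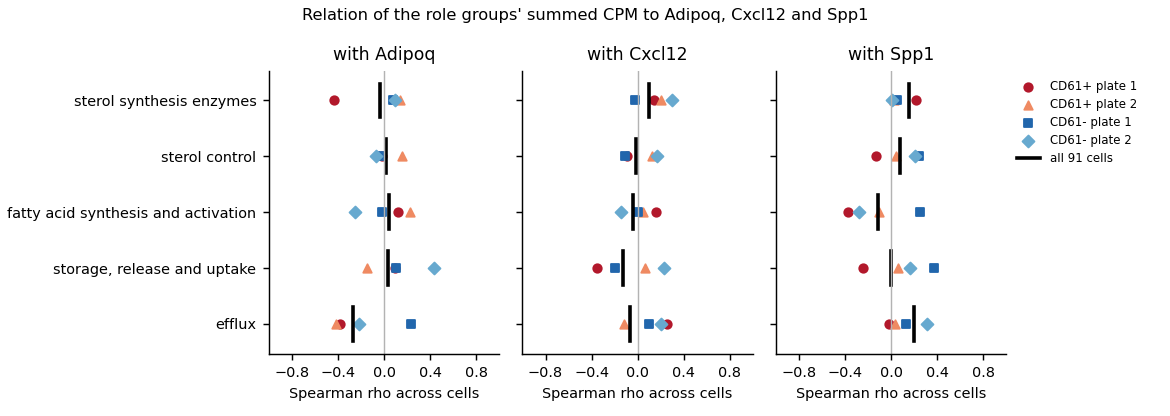
Spearman rho across cells between the summed CPM of each role group and Adipoq, Cxcl12 or Spp1, for all 91 cells (vertical lines) and in each of the 4 plates (symbols). Lines lie between -0.27 and 0.20, and the plates fall on both sides of 0 for every relation but that of the sterol enzymes with Spp1.

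Between CAR-like and osteolineage-like cells the members differed about as often as other genes did. In all 4 plates 8 of 40 members were higher in CAR-like cells (Acsl1, Acsl4, Fasn, Insig1, Mvk, Plin2, Sc5d and Scap), beside 17.8% of genes, and 2 were lower (Lss and Tmem97), beside 3.0%. Acsl4 had 8.72 CPM in CAR-like and 0.922 CPM in osteolineage-like cells, and Sc5d 53.8 and 14.4 CPM. For Insig1, Mvk, Plin2 and Scap the share of cells with a count was lower in CAR-like cells, against the summed level, so no order is read from them. Plin2, for one, had 97.4 and 18.6 CPM but was counted in 33.3% and 36% of cells, and a single CAR-like VCAM1+ cell had 2181 CPM. These values rest on 2 osteolineage-like cells on each CD61- plate. The endothelial-like cluster of 9 cells, whose markers also include fibroblast genes, had the highest level of 14 of the 40 members, among them Fabp4, Elovl5 at 132 CPM, Pnpla2 at 107 CPM, Plin3 at 93.0 CPM and Lipa at 75.4 CPM. The shallow CAR-like cluster 3, with a median of 1078900 counts, had the lowest sterol enzyme sum of the 7 clusters, at 39.7 CPM against 142 to 195 CPM elsewhere. This cluster includes a VCAM1+ cell with 0 CPM of Cxcl12 and of Adipoq and 8605 CPM of the endothelial markers, which counts as CAR-like here.

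**Figure D5:**
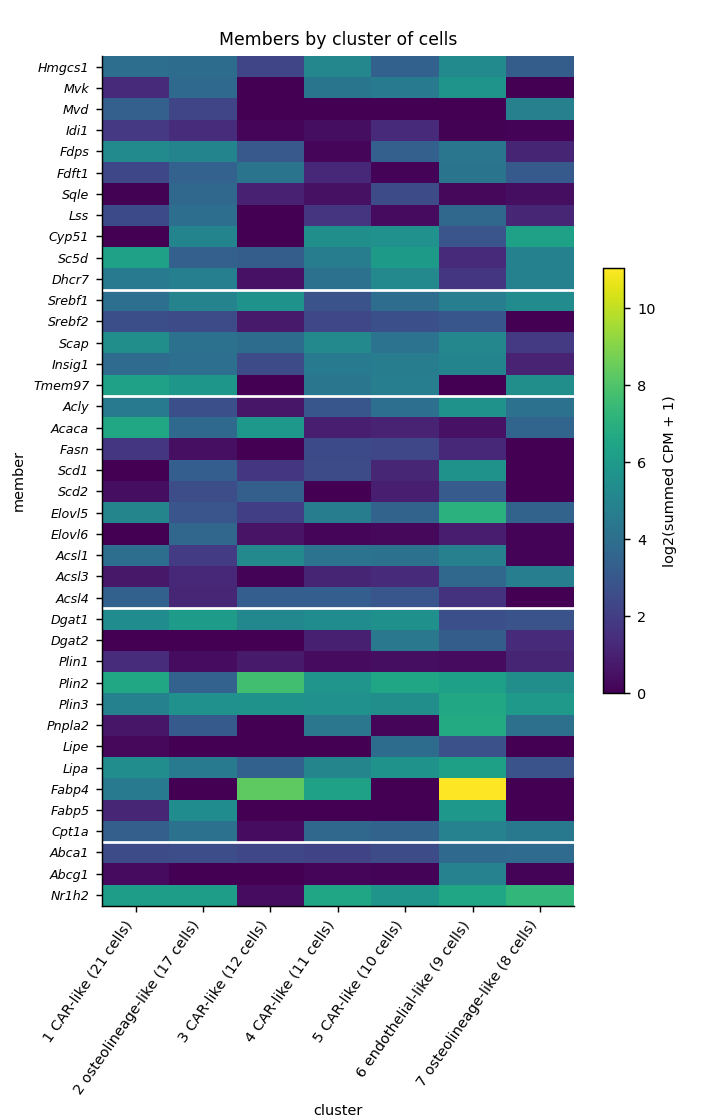
Level of each member (rows, by role, white lines between roles) in the 7 clusters of cells (columns), as log2(summed CPM + 1). Fabp4 is brightest in cluster 6, and cluster 3 is dark over most sterol enzymes.

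Genes of the same pathways on other lists than the 41 also went both ways. Of 44 past the filter, 12 separated the plates upward and 11 downward, with a median log2 ratio of 0.071. Cidec, Cidea and Plin4 were not analysed here. Among 15 other sterol genes 3 were higher, among them Pmvk and Nsdhl, and 3 lower, Acat2, Npc2 and Soat1. That is 20.0% each way, near the shares of all genes. Pmvk, phosphomevalonate kinase, had 114 and 44.9 CPM in the CD61+ plates against 8.95 and 23.5 CPM in the CD61- plates.

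Among 19 other fatty acid and storage genes 6 were higher and 5 lower, beside the same 20.0% and 17.8% of all genes. Mgll, the monoglyceride lipase, had 360 and 297 CPM in the CD61+ plates against 26.3 and 86.3 CPM in the CD61- plates, and was counted in 20 of 39 and 5 of 40 cells. Hilpda, a droplet protein that inhibits triglyceride lipase, had 68.5 and 66.9 against 21.8 and 0 CPM. Agpat2, an acyltransferase of triglyceride synthesis, had 36.8 and 28.5 against 209 and 52.6 CPM. Exons of Agpat2 overlap Egfl7, an endothelial marker, on the opposite strand, and those of Mgll overlap Gm26588 there, so reads of these pairs cannot be told apart. Of 10 efflux and oxidation genes 3 were higher and 3 lower, among the latter Nr1h3, the other LXR gene, at 0.564 and 12.8 against 17.6 and 52.4 CPM. Nr1h3 shares exon sequence on its own strand with Gm13783, so its level is uncertain.

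The genes whose level was most like that of the summed sterol enzymes across the 91 cells were Smad6 (rho 0.43), Psme3 (0.42), Dkc1 (0.41), Timm23 (0.40) and Bcas2 (0.40), out of 4130 genes with a count in at least 50% of cells and a median rho of 0.087. Their lowest within-plate values ran from 0.24 to 0.31.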

How the data were processed

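Expected counts for each gene in each cell were deposited by the authors. Per the submitters' processing notes, the tools were kallisto 0.43.0 and R 3.5.1, and the build was mm10. The counts are whole numbers, and the annotation and options are not given in the sources used here. Forward scatter and CD200 signals from the sort are intensity values that the authors deposited unlogged. Counts were summed per plate and gate and scaled to 1000000 (CPM). Genes needed 10 counts and 5 cells over the 4 plates of the CD61 gates. A sum under 3 counts was raised to that floor before a ratio was taken. Members and lists were chosen with earlier results of these data known. Values are given in full for the 2 members of each role with most counts per kb, and for members that separate the plates and are counted in 25% or more of the higher gate's cells; of the pathway lists, for up to 6 genes with the largest ratio by the same rule. Some genes that the rule names are not reported here. Cells were clustered without members and pathway genes on 2000 variable genes, 15 components, 10 neighbours and Leiden resolution 1 (scanpy 1.11.5, igraph 0.11.9), and clusters were named from marker lists, ties going to the list with more markers. No cell was removed and no doublet caller was run. Steps were tested on simulated data. Alternatives were TMM (edgeR 4.0.16), DESeq2 1.42.0 size factors, mean CPM over cells, no filter, thinning, leaving out plates, cells or clusters, and resolutions 0.5 and 1.5; leaving out Fabp4 or the cells with a Cdh5 count, and the thinned shares, were chosen after seeing the data. Transcript lengths and overlaps came from GENCODE vM21, where 16526 of 16580 symbols matched. Software was R 4.3.3 and Python 3.11.15 with scipy 1.17.1, pandas 2.3.3, numpy 2.4.6 and matplotlib 3.10.9.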

Additional observations from a re-analysis of the deposited data

How the results depend on the processing

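Depth and the number of cells limit these results: most members were counted in few cells, and no animal is named. No paired analysis was possible because each gate counts as 1 sample, and no source used here says that plates with the same number in their titles share an animal or a day. Of the 11 members higher in CD61+ plates, 10 remained under TMM and DESeq2 scaling, 7 with thinning (without Fdps, Srebf1, Scd2 and Elovl6) and 7 with the mean CPM over cells (without Fdps, Dhcr7, Scd2 and Elovl6). Of the 5 lower, 3 remained under each of the last 2, without Sc5d and Acsl4. On the log2 scale, leaving out single plates or cells gave these values for CD61+ over CD61-: without CD61- plate 1, 1.25 for the sterol enzymes (0.30 without CD61- plate 2 and 0.37 without CD61+ plate 1), 0.18 for sterol control and -0.056 for efflux. Without single cells sterol control ran from -0.46 to 0.024, and efflux reached 1.04 without CD61- plate 2. The storage group came to -0.15 without other clusters, -0.20 without Fabp4, -0.70 without CD61+ plate 1, 1.98 without CD61- plate 2 and -0.36 without 1 cell. Single members turned likewise: Acly ran from -2.16 without CD61+ plate 2 over 0.30 without CD61+ plate 1 to 1.21 without CD61- plate 1, Plin2 0.13 without CD61+ plate 1, 0.11 without CD61- plate 2 and -0.39 to 0.29 without single cells, Fabp4 4.49 without CD61- plate 2, -10.95 without CD61+ plate 1 and -0.55 without 1 cell, Abcg1 -2.26 without CD61+ plate 1 and -2.80 to 4.46 without single cells, and Nr1h2 1.06 without CD61- plate 2 and -0.071 without CD61- plate 1. For Fabp4 the value of -10.95 is set by the floor of 3 counts, since CD61+ plate 2 had no count, and its size is not a measured difference. The weak relations also changed sign. With the mean log2 level, rho was -0.11 for sterol control and Adipoq, -0.11 for storage and Adipoq and 0.13 for storage and Spp1. In the named clusters alone rho with Cxcl12 was 0.061 for sterol control, 0.13 for fatty acid synthesis, 0.037 for storage and 0.034 for efflux, and storage with Spp1 was 0.13, or 0.0046 in cells with an assigned gate. At resolution 0.5 the log2 ratio of CAR-like over osteolineage-like cells was -0.32 for fatty acid synthesis and -1.92 for storage, against 0.97 and 0.64 at resolution 1. No cluster was named endothelial-like at resolution 0.5. The osteolineage-like cluster there held 26 cells and had Cd34 among its leading genes. Its mean log2 level of endothelial markers was 1.45, against 0.078 in osteolineage-like cluster 2 at resolution 1. The causes were not tested.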

Other observations

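Among the 3 cells without an agreed gate, sterol enzymes summed to 5.09, 0.738 and 10.5 CPM and efflux genes to 232, 12.2 and 159 CPM, against medians over cells of 128 and 27.2 CPM in the CD61+ gate and of 92.8 and 7.84 CPM in the CD61- gate. Soat1, which esterifies cholesterol for storage, had 58.2 and 166 CPM in the CD61+ plates and 387 and 306 CPM in the CD61- plates. Lpl, the lipoprotein lipase, had 1013 and 914 against 3955 and 3188 CPM, and Apoe, an apolipoprotein, 2584 and 1832 against 4114 and 5327 CPM. These 3 genes lie outside the naming rule and were chosen after their values were seen.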
